A study of Mus musculus with 3 samples.

Results

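CLK only peaks inside gene bodies are the places in the mouse liver genome where the CLK (CLOCK) library was enriched over Input within a gene and no BMAL1 peak was called at the same place. They were chosen by the authors' class CLK only, which holds CLK peaks that share no base with a BMAL1 peak, and by a peak centre lying between the start and the end of the assigned transcript. This selected 246 of the 548 CLK only peaks, of 759 CLK peaks and of the 2127 peaks of the whole series. The 246 peaks were assigned to 226 genes on 19 chromosomes, and none lay on the X chromosome. The CLK values and the absence of a BMAL1 peak were thus selected on, and they are given as a description with no test.

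Chromatin came from the liver of adult male wild-type C57BL/6 mice of 3 to 6 months. The mice were kept under 12 h of light and 12 h of darkness and sampled at ZT8, which is 8 h after lights on. The CLK group was precipitated with anti-CLK antibody, the BMAL1 group with anti-BMAL1 antibody, and the Input group received no antibody. All 3 libraries were made from the same liver extract, and the labels list 1 library per group, so no value has a replicate and every test compares peaks of these libraries rather than animals. The CLK library held 37371047 mapped tags, of which 33057959 were at distinct positions. The BMAL1 library held 28920754 and 25217144, and the Input held 18846303 and 18206506. BMAL1 signal at places without a BMAL1 peak was not measured, so a missing call is not read as missing binding. The liver was used as a whole, so that strong binding in few cells and weak binding in many cells cannot be told apart.

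CLK and BMAL1 are basic helix-loop-helix PAS proteins that pair and bind DNA at the e-box, the hexamer CACGTG. In the liver the pair drives the genes of its own repressors, the period and cryptochrome genes, and of many enzymes and regulators of metabolism. NPAS2 is a related protein that can take the place of CLK beside BMAL1.

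The sequences that carry this element are given first. The selection did not read the sequence, but it used the absence of a BMAL1 peak, and BMAL1 binds the e-box. An e-box was present within 100 bp of the summit, the base of highest CLK signal, in 31 of the 246 peaks. The 10 of highest CLK score whose printed stretch touches no UTR are shown here on the plus strand of mm9, with the e-box in capitals and 20 bases on either side.
Alas1 (chr9:106136601-106136646): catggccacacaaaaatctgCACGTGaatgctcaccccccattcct
4930417O13Rik (chr6:125221733-125221778): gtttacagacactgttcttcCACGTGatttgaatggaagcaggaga
Gnmt (chr17:46865993-46866038): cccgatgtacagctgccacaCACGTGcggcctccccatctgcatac
uc007ohi.1 (chr12:87203653-87203698): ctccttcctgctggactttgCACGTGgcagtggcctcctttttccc
Rrbp1 (chr2:143835641-143835686): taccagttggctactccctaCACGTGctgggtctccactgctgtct
Slc25a25 (chr2:32275942-32275987): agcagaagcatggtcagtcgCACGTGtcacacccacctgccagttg
Clk4 (chr11:51077892-51077937): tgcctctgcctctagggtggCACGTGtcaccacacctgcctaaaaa
Nfic (chr10:80888211-80888256): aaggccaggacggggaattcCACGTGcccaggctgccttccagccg
Ankrd42 (chr7:99734615-99734660): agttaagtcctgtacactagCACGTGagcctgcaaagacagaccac
Apoa5 (chr9:46076589-46076634): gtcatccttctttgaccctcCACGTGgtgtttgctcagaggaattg
The Gnmt summit was in a coding exon, the Apoa5 summit lay just upstream of the transcript, and the other 8 were in introns. The transcript uc007ohi.1, for which the table gives no symbol, lies in Ttll5 of GENCODE M1.

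The 10 peaks of highest score had no e-box within 100 bp of the summit. For 3 of them the summit with 100 bases on either side is shown on the plus strand of mm9, chosen as the highest whose window touches no UTR. Capitals mark any of the 10 motifs searched (named further below).
Apoa1 (chr9:46038282-46038482): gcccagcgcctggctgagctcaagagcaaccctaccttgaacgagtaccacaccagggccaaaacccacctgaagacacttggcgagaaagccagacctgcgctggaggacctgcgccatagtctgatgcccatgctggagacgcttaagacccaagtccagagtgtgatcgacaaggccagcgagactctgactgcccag
uc007ktq.1 (chr11:87236442-87236642): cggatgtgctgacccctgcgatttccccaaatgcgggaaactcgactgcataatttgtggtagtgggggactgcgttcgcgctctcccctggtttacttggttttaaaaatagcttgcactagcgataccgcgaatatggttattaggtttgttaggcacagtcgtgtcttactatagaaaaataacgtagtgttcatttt
2610528E23Rik (chr16:57391658-57391858): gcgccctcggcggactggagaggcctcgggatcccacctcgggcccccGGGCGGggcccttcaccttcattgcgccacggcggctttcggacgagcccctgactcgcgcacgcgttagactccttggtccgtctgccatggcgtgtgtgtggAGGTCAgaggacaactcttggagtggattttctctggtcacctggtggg
The Apoa1 window is coding sequence of the last exon and holds none of the 10 motifs, and neither does the window in uc007ktq.1, an intron of Tex14 in GENCODE M1. The 2610528E23Rik window holds an SP1 motif and a nuclear receptor half-site, and at this summit GENCODE M1 also annotates Filip1l.

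Most of these peaks were weak. MACS, the authors' peak caller, gives each peak a score that is 10 times the negative log10 of its p-value, with the cutoff at 50, and a fold enrichment over the local Input background. The median score of the 246 peaks was 55.9 (interquartile range 52.6 to 63.3), and 156 of them (63.4%) had a score under 60. Their median fold enrichment was 6.12 (5.29 to 6.88), their median length 371 bp and their median tag count 22, with 188 peaks under 30 tags. Only 17 peaks (6.91%, exact 95% Clopper-Pearson interval 4.08 to 10.8) reached a score of 100, beside 12.4% of the 759 CLK peaks, and 38 (15.4%, 11.2 to 20.6) had an FDR of at most 5%, beside 21.3%. Both comparisons rest on values that chose the peaks, so nothing is read from them. The intervals here and below are over counts of peaks and cover no more than counting error, because each group has 1 library. Copies made by PCR are also not separate molecules. The FDR, which MACS obtains by swapping ChIP and Input, did not fall steadily with the score, as it exceeded 5% in 13 of the 17 peaks that scored 100 or more.

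Values ran down to the cutoffs without a gap. The 3 lowest scores, all 50.01, were in Thsd7b, Gtl3 and Shroom3, with 24, 24 and 19 tags. Peaks just inside a gene edge were found at Gadd45g, whose centre was 7.5 bp inside (score 75.18), and at D2Ertd750e, 31 bp inside (55.48). The CLK only peaks just outside were at Cabc1, 10.5 bp from the edge (79.17), and at 9330129D05Rik, 19 bp from it (66.06). The values on both sides of the edge were alike in size. In all, 302 CLK only peaks lay outside the gene, with a median score of 55.8, a median fold enrichment of 6.35 and a median length of 358 bp.

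**Figure D1:**
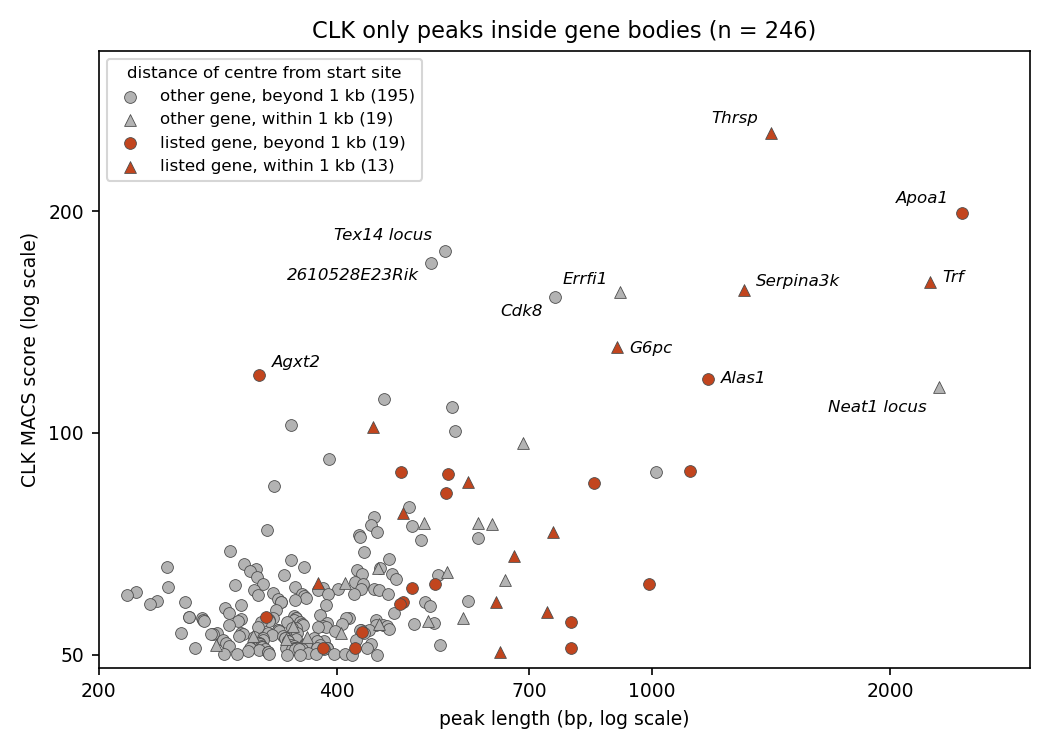
CLK MACS score against peak length for each of the 246 CLK only peaks inside gene bodies, both on log scales, with triangles for centres within 1 kb of the start site and filled red symbols for genes of the 7 lists of genes. Of the 17 peaks of at least 700 bp, 13 are at listed genes, and the highest score is 254.9 at Thrsp. The lists were written with results of these data known.

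A small group of peaks stood above the rest in score, and some of these were broad. Of the 17 peaks that scored 100 or more, 9 were at least 700 bp long. The highest score was at Thrsp (Spot 14), which promotes the synthesis of fatty acids in the liver. Its peak, chr7:104564846-104566258, had a score of 254.9, a fold enrichment of 9.01 and 143 tags over 1413 bp, and covered the start site and the first exon. Next was Apoa1, the main protein of high-density lipoprotein, with a score of 198.63 and 200 tags over 2460 bp, a peak longer than the 1757 bp gene itself. Trf, which encodes the iron carrier transferrin, had a score of 160.27 with 173 tags over 2246 bp. Serpina3k, a plasma inhibitor of serine proteases, had a score of 156.27 with 125 tags over 1306 bp. The peaks of Thrsp, Trf and Serpina3k lay at the 5′ end of their gene, while that of Apoa1 spanned the whole gene and had its summit in the last exon.

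Other peaks of high score were at genes of different kinds. Within introns of Tex14 in GENCODE M1, the transcript uc007ktq.1 carried peaks with scores of 176.6 and 100.65, 3285 bp apart, and one more of 62.09. These places were not searched for small RNA genes or gene copies beyond those of GENCODE M1. The peaks are thus not credited to Tex14 itself. The first peak of 2610528E23Rik scored 169.93, more than 200 kb into that 304844 bp gene. Errfi1, an inhibitor of the epidermal growth factor receptor, had a score of 155.16 and a fold enrichment of 9.66 at its start. Cdk8, a kinase of the Mediator complex, had the most tags of all 246 peaks, 266, in 754 bp, with a fold enrichment of 4.38. Its summit lies in a miRNA gene that GENCODE M1 places in an intron of Cdk8.

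The peak assigned to the short transcript AK197973 had a score of 115.5 and 183 tags over 2306 bp. Its summit lay outside that 295 bp transcript and within Neat1 of GENCODE M1, the long non-coding RNA around which paraspeckles form. G6pc, the catalytic subunit of glucose-6-phosphatase, had a score of 130.74 in its first intron. Alas1, the rate-limiting enzyme of haem synthesis, had a score of 118.37 in intron 10, near the gene end. Agxt2, a mitochondrial aminotransferase, had a narrow peak of 319 bp with 29 tags but a score of 119.65 and a fold enrichment of 11.2. High scores therefore came from broad peaks of low enrichment in some genes and from narrow peaks of high enrichment in others. The peaks of Thrsp (1413 bp, fold enrichment 9.01) and Errfi1 (911 bp, 9.66) were both broad and highly enriched.

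The remaining peaks among the 25 of highest score lay between 85.51 and 111.12. They included Ankrd42 (111.12), Xpo6, an exporter of actin from the nucleus (102.64), and Scd1, the desaturase of stearoyl-CoA (101.73). Below a score of 100 were Uox, the urate oxidase (96.9), 4930417O13Rik (92.28), Pck1, which encodes the cytosolic enzyme of gluconeogenesis PEPCK (88.87), the clock repressor Cry2 (88.43) and Slc25a25, a mitochondrial carrier of ATP (88.37). The last were Alb, albumin (87.82), Cps1, the first enzyme of the urea cycle (85.71), and Tat, tyrosine aminotransferase (85.51). The next peak in rank had a score of 84.61. Of these 25 peaks, 13 were at genes of the lists described next, 12 were at least 700 bp long, 17 had their summit in an intron and 2, at Alas1 and 4930417O13Rik, had an e-box.

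The broad peaks were mostly at listed genes, but the lists were written with results of these data known, so this is a description only. The 17 peaks of at least 700 bp had a median fold enrichment of 5.1 and a median of 88 tags. Of these peaks, 13 (76.5%, 50.1 to 93.2) were at listed genes and 8 (47.1%, 23.0 to 72.2) lay within 1 kb of the start site. Listed genes held 32 of all 246 peaks (13.01%), and no test was made. The 4 at other genes were those of Errfi1, Cdk8, AK197973 and Slc25a25. An e-box lay near the summit in 2 of the 17, at Alas1 and Gnmt. Outside genes, 7 of the 302 CLK only peaks were this long (2.32%, 0.937 to 4.72), and inside genes 15 of the 94 CLK:BMAL1 peaks (15.96%, 9.22 to 24.95), which overlap a BMAL1 peak.

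Of 476 genes on 7 lists of liver functions and clock genes, 26 held a CLK only peak within the gene, with 32 peaks in all. They were 11.5% of the 226 genes with such a peak, beside 3.05% of the 295 genes assigned a CLK only peak outside the gene, 5.24% of the 553 genes with a BMAL1 only peak inside and 20.2% of the 89 with a CLK:BMAL1 peak inside. No test was made, because the lists were written with results of these data known. The classes differ in size, so the gene counts for each list below are to be read beside these totals of 226, 553 and 89 genes. The 32 peaks had a median score of 70.7, a median length of 610.5 bp and a median fold enrichment of 5.25, against 55.4, 357.5 bp and 6.18 for the other 214. Centres within 1 kb of the start site were 13 of these 32 peaks (40.6%) and 19 of the other 214 (8.88%). The genes also differed in length, with medians of 15700 bp over the 32 peaks and 87648 bp over the other 214. In a short gene more of the length lies within 1 kb of the start, and the part of this in the contrast was not tested.

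Plasma proteins secreted by hepatocytes were represented by 6 of 114 listed genes. These were Alb, Apoa1, Apoa5, Serpina3k, Serpina3m and Trf, with 9 peaks and a median score of 82.9. Apoa5, which controls plasma triglycerides, had a score of 59.02 over its start, and Serpina3m 82.93 in an intron of its 53765 bp transcript. Serpina3k and Serpina3m are related neighbours, and their peaks lay 6940 bp apart. How well the mapped tags separate these genes was not tested. At the Serpina3m summit GENCODE M1 has no gene. BMAL1 only and CLK:BMAL1 peaks inside genes were found at 2 and 1 genes of this list.

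Enzymes of amino acid metabolism and the urea cycle were 6 of 63 listed genes, with 8 peaks. Besides Agxt2, Cps1 and Tat, they were Bhmt, which methylates homocysteine (score 77.81, first coding exon), Gnmt, the glycine methyltransferase (73.46, first coding exon), and Ass1 of the urea cycle (58.96, intron 11). BMAL1 only peaks inside genes were found at 5 genes of this list and CLK:BMAL1 peaks at 1. Glucose and glycogen genes were 3 of 39. Of these, Pygl, the liver glycogen phosphorylase, had a score of 57.16 in its first coding exon, and the others were G6pc and Pck1. The other classes inside genes had 3 and 4 genes of this list.

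Lipid and bile acid genes were 4 of 69. Beside Thrsp and Scd1 there were weak peaks at Ehhadh, an enzyme of peroxisomal fatty acid oxidation (51.0), and at Fabp1, the liver fatty acid binding protein (50.48). Both lay in the first intron. BMAL1 only peaks inside genes were also found at 4 genes of this list, and CLK:BMAL1 peaks at 0. Drug and steroid metabolism had 2 of 98 genes, Alas1 and Fmo5, a flavin monooxygenase (53.64, intron 6), and the other classes inside genes had 1 and 2.

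Clock genes were 3 of 33, namely Cry2, Per1 and Rora, beside 7 with a CLK:BMAL1 and 5 with a BMAL1 only peak inside. Per1 and Cry2 encode repressors of CLK:BMAL1, and Rora encodes a nuclear receptor that activates Bmal1. The Rora peak (61.57) lay 47835 bp from the start site, in intron 1 of this 725227 bp gene. Liver transcription factors were 2 of 60, Nfic (62.37) and Klf13 (50.99), both in intron 1, beside 9 with a BMAL1 only peak and 3 with a CLK:BMAL1 peak inside. Counted by the assigned symbol, most CLK only peaks inside genes, 214 of 246, were thus at genes on none of the 7 lists. The peak with the symbol Poc1a, described below, is counted among these.

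Of the 226 genes, 15 held 2 or more of these peaks (6.64%, 3.76 to 10.7). Alb held 4. Tat, Pibf1 and uc007ktq.1 held 3 each. The other 11 genes with a pair were 2610528E23Rik, Ankrd42, Uox, Pck1, Slc25a25, Fto, Lclat1, Hecw2, Auts2, Plcb4 and an entry whose symbol in the table is the number 39141 and whose summits lie in March1 of GENCODE M1. In Fto, Lclat1, Hecw2, Auts2, Plcb4 and that entry, every peak had a score of at most 61.14, and the gene spanned more than 100 kb. Genes were counted by the symbol in the table. The peak chr9:106148868-106149520, which scored 63.16, has the symbol Poc1a there but lies in the same transcript as the Alas1 peak and in Alas1 of GENCODE M1. With this peak counted at Alas1, that gene would be 1 more with a pair, and the peaks at listed genes would be 1 more. In Alb, Tat and Pck1 the peaks were packed into 15700, 9345 and 6181 bp.

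**Figure D2:**
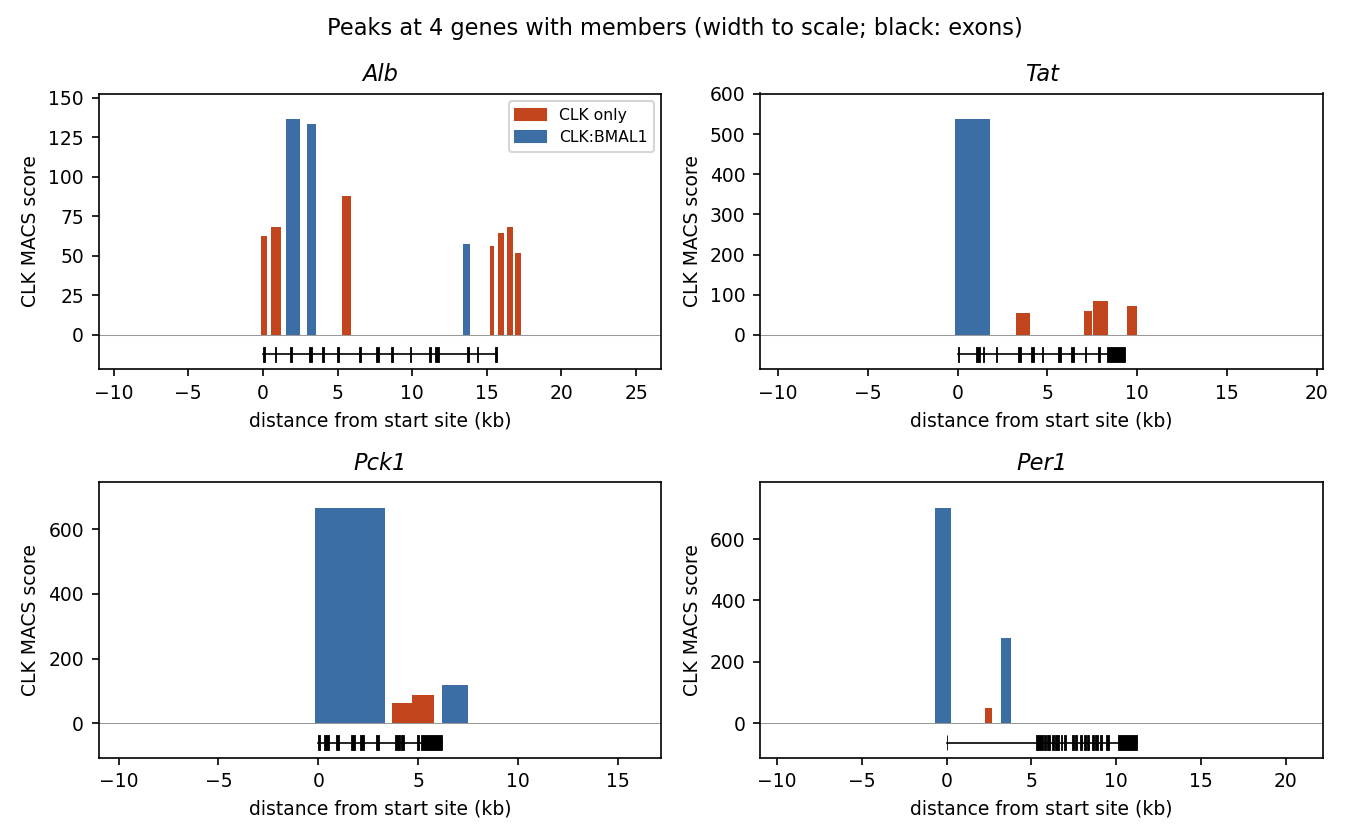
CLK peaks at Alb, Tat, Pck1 and Per1 by distance from the start site in kb, with CLK MACS score as height and peak width to scale; red bars are CLK only, blue bars are CLK:BMAL1 peaks, and the black line with boxes is the transcript with its exons. The highest bar of each gene is blue. In Alb a further blue bar is lower than some of the red bars.

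At Alb the peaks of both classes alternated. CLK only peaks lay at 0.081, 0.898, 5.602 and 15.4 kb from the start site, with scores of 62.6, 67.97, 87.82 and 56.26, and their tag counts were 22, 50, 35 and 19. CLK:BMAL1 peaks lay at 2.00, 3.28 and 13.6 kb, with CLK scores of 136.27, 133.56 and 57.58, and 3 more CLK only peaks followed within 2 kb beyond the gene end. None of these 10 peaks had an e-box within 100 bp of its summit. The called class thus changed several times along this gene. Whether BMAL1 signal changed with it was not tested.

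At Tat and Pck1 a CLK:BMAL1 peak covered the start and the CLK only peaks lay further in. The Tat start was covered by a CLK:BMAL1 peak of 1942 bp with a CLK score of 536.5, and the CLK only peaks at 3.66, 7.25 and 7.98 kb scored 55.32, 58.65 and 85.51. The Pck1 start was covered by a CLK:BMAL1 peak of 3505 bp with a CLK score of 665.61 and 477 tags. Its CLK only peaks, at 4.17 and 5.24 kb in exons 8 and 9, scored 62.33 and 88.87, and only 19 bp separated them. A further CLK:BMAL1 peak, scoring 117.63, followed the Pck1 gene. None of these peaks at Tat or Pck1 had an e-box near its summit.

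Of the 3 clock genes with a CLK only peak inside, Per1 had an e-box near the summit, and Cry2 and Rora had none. The Per1 peak, chr11:68911023-68911443 in intron 1, scored 51.05 and had an e-box 45.5 bp from its summit. It lay between CLK:BMAL1 peaks with CLK scores of 701.37 and 276.47, both with an e-box, and was 462 bp from the nearest BMAL1 peak. At Cry2 a CLK:BMAL1 peak with an e-box and a CLK score of 121.22 lay about 2 kb nearer to the start than the CLK only peak. At Alas1 a BMAL1 only peak with an e-box lay 290 bp from the CLK only peak, which also had one.

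Such neighbours were counted for all 246 peaks. A BMAL1 peak lay within 1000 bp of 7 of the 246 peaks (2.85%, 1.15 to 5.77), and within 10000 bp of 21 (8.54%, 5.36 to 12.8). Among the 7 were peaks at Alas1, Slc5a6 and Per1, the pair in Pck1, and one peak in Alb. The smallest gap was 204 bp, at Slc5a6, and the median gap was 418376 bp. At Thrsp, which had the highest CLK score, a BMAL1 only peak with an e-box and a BMAL1 score of 163.05 lay 5934 bp away. These shares were not computed for other peaks or for random sites, so they are not read as high or low. Of the 226 genes, 27 (11.9%) were also assigned a BMAL1 only peak and 9 (3.98%) a CLK:BMAL1 peak. Among the 9 were Alas1, Alb, Cry2, Itpr2, Klf13, Pck1, Per1 and Tat.

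The place of the summit within the gene was read from the exons of the assigned transcript. The summit was in an intron in 202 peaks (82.1%, 76.7 to 86.7), and in 78 of the 246 it was in the first intron. Exons held 39 summits (15.9%, 11.5 to 21.0), of which 27 were in coding sequence, 4 in a 5′ UTR, 3 in a 3′ UTR and 5 in transcripts without coding sequence. The last 5 summits fell upstream of the transcript, although the peak centre was inside it. Exons made up on average 9.27% of the bases of the same genes, averaged over peaks, and 2.09% when the bases of these genes were pooled. The median host gene was 69109 bp long, and 93 peaks were in genes over 100 kb.

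No difference in exon share was detected between these peaks and the other classes inside genes. BMAL1 only peaks had 97 of 577 summits in exons (16.8%), a difference of -0.957 percentage points (95% Newcombe interval -6.15 to 4.86; p = 0.760 in a two-sided Fisher's exact test and also after adjustment over 5 tests). For CLK:BMAL1 peaks the exons held 11 of 94 summits (11.7%), a difference of 4.15 percentage points (-4.85 to 11.3; Fisher's exact p = 0.394, adjusted p = 0.493). The intervals allow differences of up to about 11 points, so the classes are not shown to be alike.

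**Figure D3:**
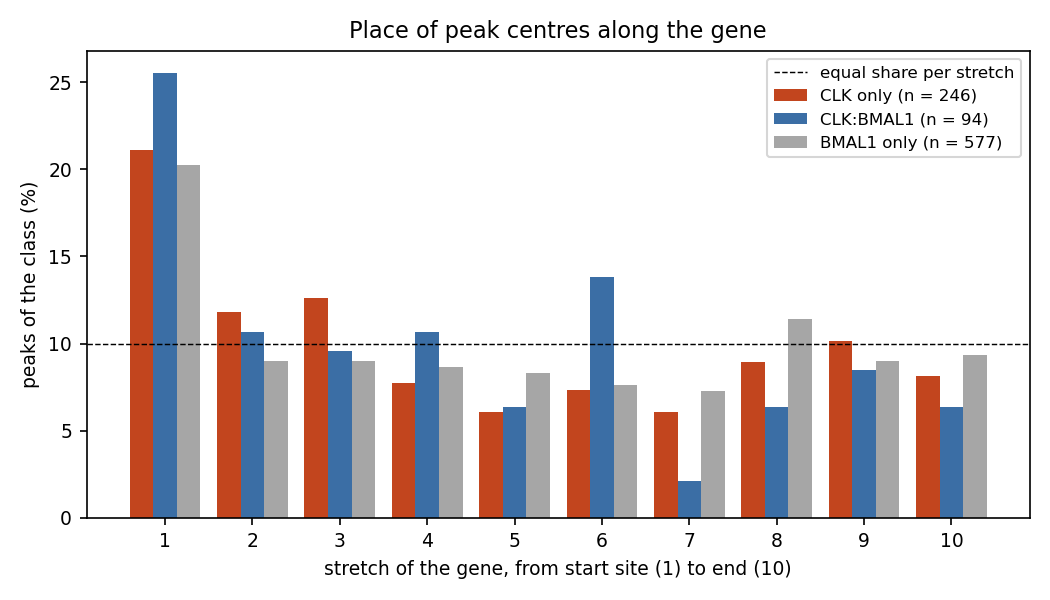
Share of peak centres in each of 10 equal stretches of the gene, from the start site (1) to the end (10), for CLK only, CLK:BMAL1 and BMAL1 only peaks inside genes; the dashed line is an equal share of 10%. Stretch 1 holds 21.1% of the CLK only peaks, against 25.5% for CLK:BMAL1 and 20.3% for BMAL1 only.

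Along the gene the peaks leaned towards the start. With each gene cut into 10 equal stretches, the one at the start held 52 of the 246 centres (21.1%, 16.2 to 26.8), and the first 3 stretches held 112 (45.5%). The median centre lay at 35.2% of the gene length. From stretch 4 on, each held between 15 and 25 centres. Within 1 kb of the start site were 32 centres (13.01%, 9.07 to 17.9), beside 14.0% for BMAL1 only and 20.2% for CLK:BMAL1 peaks inside genes, and within 1 kb of the gene end were 10 (4.07%, 1.97 to 7.35).

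Peaks near the start differed in shape from the others. The 32 within 1 kb had a median score of 65.2, a median length of 581 bp, 39.5 tags and a fold enrichment of 5.46, and their genes were short, with a median of 11532 bp. The other 214 had medians of 55.6, 359 bp, 21 tags and 6.12, and a gene length of 87741 bp. The GC content of the summit windows was 57.5% in the first set and 51.2% in the second. An e-box was found in 8 of 32 (25%, 11.5 to 43.4) and in 23 of 214 (10.7%, 6.94 to 15.7). These sets were compared after the values were seen, and no test was made.

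**Figure D4:**
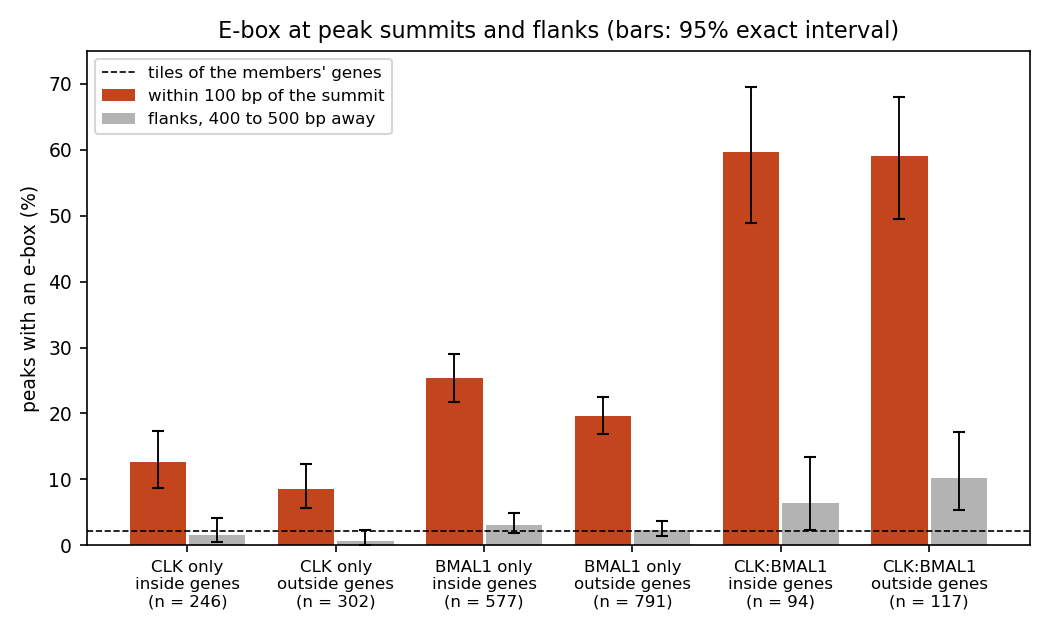
Share of peaks with an e-box (CACGTG) within 100 bp of the summit (red) and in the flanks 400 to 500 bp away (grey) for the 6 sets of peaks, with exact 95% intervals; the dashed line is the share of tiles of the genes that hold CLK only peaks. CLK only peaks inside genes stand at 12.6% at the summit and 1.63% in the flanks.

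The e-box was present in 12.6% of the summit windows (8.73 to 17.4), against 1.63% of the flanks (0.445 to 4.11) and 2.19% of 174397 tiles of the same length as the summit window, cut from the same genes. Over all peaks of the series the share was 22.7%. In the 31 peaks with an e-box, the nearest one lay a median of 23.5 bp from the summit, and in 23 of them it was within 50 bp. One peak had a pair of e-boxes, which gave 32 in all. Out to 600 bp on either side there were 73 e-boxes. The other 215 peaks had none within 100 bp.

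**Figure D5:**
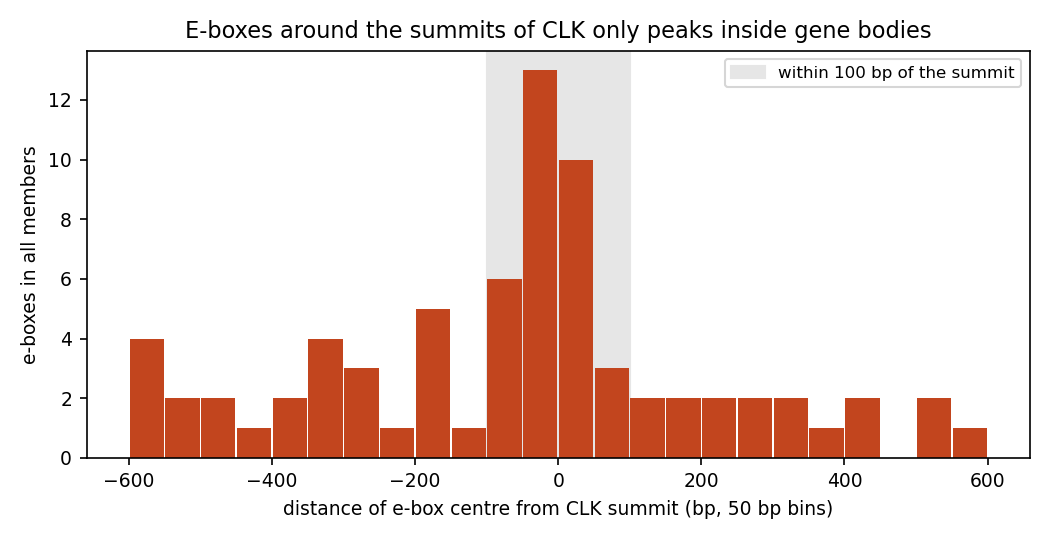
Number of e-boxes in 50 bp bins around the CLK summits of the 246 peaks, out to 600 bp on either side; the grey band marks 100 bp either side of the summit. The central bins hold 13 and 10 e-boxes, and every bin beyond 100 bp holds at most 5.

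Peaks with and without an e-box were close in score. The median score of those with one was 55.5, against 56.1 for the 215 without, and their median fold enrichment was 5.88 against 6.12. Their median tag count was 25 against 21, and their median length 421 bp against 363 bp. Among the 17 peaks that scored 100 or more, 1 had an e-box, the one at Alas1. Besides those printed above, e-boxes were found at Gnl3, Nadk, Klhl21, Vps13a, Rps9, Fmo5, Per1, Glis1 and Actn1, among others. Among the 32 peaks at listed genes 6 had an e-box (18.8%), at Alas1, Apoa5, Fmo5, Gnmt, Nfic and Per1.

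The e-box share was compared with that of 3 other sets of peaks, which share no peak with this one. CLK only peaks outside genes had an e-box in 26 of 302 (8.61%), and no difference was detected (3.99 percentage points, 95% Newcombe interval -1.16 to 9.42; two-sided Fisher's exact p = 0.159, adjusted p = 0.265). BMAL1 only peaks inside genes had one in 146 of 577 (25.3%), and the CLK only peaks inside genes were lower by 12.7 points (-17.9 to -6.89; Fisher's exact p = 4.06e-05, adjusted p = 0.000101). CLK:BMAL1 peaks inside genes had one in 56 of 94 (59.6%), a difference of -47.0 points (-57.0 to -35.8; Fisher's exact p = 1.53e-17, adjusted p = 7.67e-17). The classes were set by whether a BMAL1 peak was called, and BMAL1 binds the e-box. A lower share than in the classes with a BMAL1 peak can thus be built in by the selection, and how much of it is was not tested. The median CLK score also differed, at 55.9 against 87.9 for CLK:BMAL1 peaks inside genes. The peaks of a class are not replicates, and the BMAL1 only peaks were centred on summits of another library.

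The other motifs were described in the same windows, on both strands. The E'-box (CACGTT), which differs from the e-box in 1 letter, was in 18 peaks (7.32%, 4.39 to 11.3), against 2.03% of flanks and 2.41% of tiles. With it, 48 of the 246 peaks had an e-box or E'-box. The HNF4 motif (CAAAGNNCA), for a receptor of liver identity genes, was in 20 peaks (8.13%, 5.04 to 12.3), against 4.47% of flanks and 5.04% of tiles. The nuclear receptor half-site (AGGTCA), which a match of the HNF4 motif can contain, was in 15.9% of peaks, 10.6% of flanks and 11.6% of tiles. The SP1 motif (GGGCGG) was in 7.72%, 5.69% and 1.92%.

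Motifs of other liver factors were near or below the level of the tiles. FOXA (TGTTTAC) was in 3.25% of peaks and 3.06% of tiles, C/EBP (TTGCNCAA) in 2.03% and 1.92%, and NF-Y (CCAAT) in 21.5% and 27.4%. The D-box (TTANGTAA) of E4BP4 and the PAR bZIP factors was in 0.813% of peaks and 2.57% of tiles, and the HNF1 half-site (GTTAATNA) in 0.407% and 2.505%. The windows were richer in GC than the tiles, with medians of 51.2% and 42.3%, and the part of this in the motif counts was not tested. A match is only a match of letters. Not one of the 246 windows held a simple repeat of 20 bp or more (0 of 246, exact upper limit 1.49%), against 6.62% of the tiles, a measure chosen after the data were seen.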

How the data were processed

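ChIP libraries for CLK and BMAL1 and an Input library (mouse liver, ZT8) were compared by the authors, with 1 library each. The submitters' processing notes name CASAVA 1.6 and Bowtie, and reads with a single position in mm9 were kept. MACS was run by the authors on each ChIP library against Input (per the file headers, with 36 as tag size, 80 as band width, 5 as model fold and 1e-05 as p-value cutoff). The MACS version is not given in the sources used here. The deposited lists hold the count of tags in each peak, a score, the fold enrichment as a ratio to the local Input background and an FDR in percent. The deposited table adds classes, UCSC transcripts and start site distances. Peaks within a gene were assigned to it by the authors.

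Every peak was joined to its MACS list by coordinates. The table labels 4 of the 246 peaks as intergenic, and 1 CLK only peak labelled as in a gene was left out because its gene coordinates do not hold its centre. Sequences came from the NCBIM37 assembly (mm9), which contains every peak, and gene names at summits from GENCODE M1. The table's symbol matched a GENCODE gene at the summit in 212 of 246 peaks. Motifs were searched within 100 bp of the summit, in flanks of 400 to 500 bp and in tiles of equal length. Simple repeats were runs of at least 20 bp. Shares have exact 95% Clopper-Pearson intervals. Two-sided Fisher's exact tests were adjusted by Benjamini-Hochberg over 5 tests. Intervals of differences are Newcombe's.

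Members, the 7 gene lists and tests were chosen with earlier results of these data known. Named were the 25 peaks of highest score, genes with 2 or more peaks, listed genes with a peak, the 10 e-box peaks of highest score outside UTRs, 3 summit windows, and the peaks nearest the cutoffs. A few genes that meet this rule are not reported here. Other names were chosen after their values were seen. Alternatives covered the gene rule, stricter thresholds, other windows, GENCODE exons and 1 peak per gene. The motif search was tested on simulated data. Python 3.11.15, pandas 2.3.3, numpy 2.4.6, scipy 1.17.1 and matplotlib 3.10.9 were used.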

Additional observations from a re-analysis of the deposited data

How the results depend on the processing

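Over 12 results, 45 alternative values were computed. Of these, 33 kept their direction and side of the threshold or stayed within the interval or within 1.5 times the count, 11 moved further and 1 changed sign. The number of peaks inside genes was 244 by summit, 224 with the whole peak inside and 243 by the table's label. With a score of at least 100, 17 peaks remained, with a median fold enrichment of 7.94, an e-box in 5.88%, an exon summit in 29.4% and 41.2% within 1 kb of the start site, 1 gene had 2 or more peaks, and 3 plasma protein genes held a peak. In this subset the exon difference from BMAL1 only peaks became 0.464 percentage points (Fisher's exact test, adjusted p = 1), where the main difference of -0.957 had not passed the threshold either. With an FDR of at most 5%, 38 peaks remained, with an e-box in 7.89%, and 2 plasma protein genes. With the whole peak inside the gene 3 plasma protein genes were left. Allowing 1 mismatch raised the e-box share to 64.2%, against 43.2% of the tiles. A limit of 5000 bp from the start site took in 24.0% of centres.

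The e-box differences from BMAL1 only and CLK:BMAL1 peaks inside genes passed the threshold under all 5 alternatives tried for each, with adjusted p (Fisher's exact test) of at most 0.0387 for the former. The difference from CLK only peaks outside genes passed it under none. Every alternative kept the selection by BMAL1 peak, so none separates the e-box share from that selection. Counts of 16 to 266 tags limit how well single peaks are known, and no library was repeated. The 3 libraries came from the same liver extract, but with 1 library in each group no paired analysis was possible.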
